A study of Mus musculus with 55 samples.

Results

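The genes of oxidative phosphorylation were examined in the ventral dentate gyrus of 54 male C57BL/6J mice. Members were protein-coding genes whose symbol begins with Nduf, Sdh, Uqcr, Cox4, Cox5, Cox6, Cox7, Cox8, Atp5, mt-Nd, mt-Co, mt-Atp or mt-Cyt and that reached 1 CPM (a count scaled to the library total) in at least 7 mice. Among the 45318 genes counted, 110 had such a symbol and 104 passed, 92 encoded in the nucleus and 12 in the mitochondrial genome. The level that chose the members was not used as a finding.

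All mice were raised in standard housing (SH) or in an enriched environment (EE) for 8 weeks. Control mice were not defeated, and the other mice went through 10 days of chronic social defeat stress (CSDS) by CD1 aggressors and were classified as resilient (RES) or susceptible (SUS) by a social interaction ratio above or below 1. Tissue of defeated mice was taken at postnatal day 90, and the age of the control mice is not given in the sources used here. There were 10 SH control, 7 SH RES, 10 SH SUS, 9 EE control, 9 EE RES and 9 EE SUS mice. RNA came from punches of single animals, so each mouse is 1 replicate, and the second sequencing run of EE control mouse 9 was summed with the first. The labels do not say which mice shared a cage, so a cage and its housing cannot be told apart. All 7 dentate granule cell markers examined were present in the tissue, with a summed level of 463 to 988 CPM per mouse. Markers of other regions were present too, so this does not show how pure the punches were. Their sums ran from 709 to 1213 CPM for CA3 and from 87.9 to 297.5 for CA1. They ran from 79.9 to 549.5 for thalamus and from 16.2 to 980 for choroid plexus.

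Oxidative phosphorylation makes ATP on the inner mitochondrial membrane. Complex I takes electrons from NADH and complex II from succinate, complex III hands them to cytochrome c, and complex IV passes them to oxygen. Complexes I, III and IV pump protons, and complex V, the ATP synthase, uses the gradient. Complex II is encoded wholly in the nucleus, whereas the other complexes combine nuclear subunits with subunits transcribed from mitochondrial DNA inside the organelle. The mitochondrial transcripts come from long polycistronic precursors, and the nuclear and mitochondrial parts must be matched for assembly.

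The mitochondrial genes have near-identical copies in the nuclear genome, and the count tables hold read pairs that map to 1 place only. A stretch of mt-Co2, a core subunit of complex IV, is shown with the same stretch of its copies on chromosomes 1 and 2. Such likeness bears on which mitochondrial counts can be compared. In the mm10 build the stretch lies at chrM:7457-7546 and the copies, on the minus strand, at chr1:24615032-24615121 (Gm28661) and chr2:22587441-22587530 (Gm13341). Capitals mark the 7 bases at which Gm13341 differs from mt-Co2.
mt-Co2: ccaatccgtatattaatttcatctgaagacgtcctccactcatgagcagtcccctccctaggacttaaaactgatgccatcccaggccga
Gm28661: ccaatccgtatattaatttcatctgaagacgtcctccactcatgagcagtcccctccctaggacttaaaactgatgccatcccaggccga
Gm13341: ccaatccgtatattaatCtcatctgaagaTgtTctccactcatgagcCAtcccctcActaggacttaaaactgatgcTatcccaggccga
The stretch of Gm28661 is identical, but it is shorter than a read of these libraries. Over 681 aligned bases Gm28661 has 0 mismatches to mt-Co2, so a pair that lies within them cannot be placed uniquely. Of all windows of 50 bases, 100% in mt-Co2, 99.9% in mt-Co3, 99.5% in mt-Atp6 and 98.0% in mt-Nd3 occur in another annotated gene. The share was 62.2% for mt-Nd4, 51.1% for mt-Co1, 8.19% for mt-Nd2 and 7.61% for mt-Nd5, and no window of mt-Nd1, mt-Nd6, mt-Cytb and mt-Atp8 occurs in another annotated gene. The windows are shorter than a read, so these shares describe the sequence and do not count lost pairs. Sequence outside annotated genes was not searched. mt-Atp8 lies between mt-Co2 and mt-Atp6, which both have an identical copy on chromosome 1, so its own sharing was not tested there. The levels of the shared genes are therefore uncertain, and comparisons between these genes are affected more than comparisons of 1 gene between mice. Among nuclear members the shared part was largest for Atp5g2, at 38.4%, and Uqcrb, at 25.4%.

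Levels per length differed between the groups of members. Members were assigned to a complex by symbol, so some, such as Atp5s and Cox7a2l, need not be structural subunits of it. Medians of the nuclear members are in TMM-scaled CPM per kilobase of exon averaged over 54 mice. The median was 47.9 for 36 members of complex I, 59.0 for 4 of complex II and 90.4 for 8 of complex III. It was 107 for 15 of complex IV and 51.1 for 17 of complex V. For the 12 assembly factors, which help build complexes I and II without staying in them, it was 9.62. Assembly factors were thus the lowest group, and even their highest member, Ndufaf5 at 18.6, was below the median of every complex. The highest nuclear members were Cox8a of complex IV at 448 and Atp5a1, the alpha subunit of the ATP synthase, at 302. Sdha, the flavoprotein that oxidizes succinate, led complex II at 95.3, with Sdhc, a membrane anchor, lowest at 20.6. In complex III, Uqcr11 was highest at 152 and Uqcrq lowest at 24.3. Ndufb9 led complex I at 137, and Ndufb2 was lowest at 5.21, over an annotated exon length of 5628 bases. The lowest member assigned to complex V was Atp5s at 6.07.

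**Figure D1:**
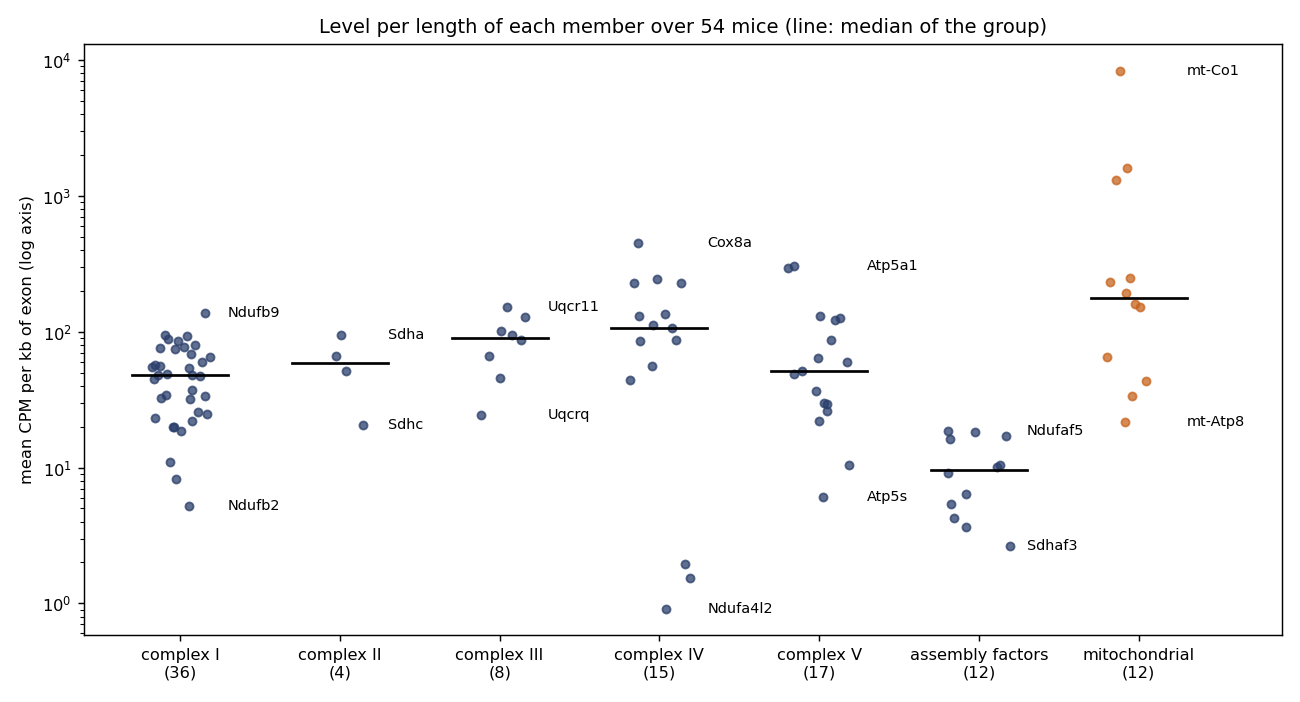
Mean level of each member over 54 mice in TMM-scaled CPM per kilobase of exon, on a log axis, by complex. Points are genes, lines are medians of the group and numbers in brackets count the genes. The assembly factors lie lowest, with a median of 9.62, and mt-Co1 lies highest at 8328.

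Subunits that exist in several forms were represented almost wholly by the form known as ubiquitous. Cox4i1, at 227 CPM per kilobase without TMM scaling, was 268 times as high as Cox4i2, the form known from lung, and the lowest ratio in any mouse was 137. Cox6a1 exceeded Cox6a2, the heart and muscle form, 124-fold, with a range of 85.6 to 225 between mice. Cox7a2 exceeded Cox7a1, also a muscle form, 87.8-fold, and Ndufa4, a subunit of complex IV despite its name, exceeded its paralog Ndufa4l2 143-fold. Cox6b1 exceeded Cox6b2, the testis form, 405-fold. Cox8b was listed at 0 in 5 mice and reached at most 13 counts, against 447 CPM per kilobase for Cox8a. The genes for the membrane ring subunit of the ATP synthase, in contrast, were expressed side by side. The levels were 60.3 for Atp5g3, 26.2 for Atp5g1 and 22.0 for Atp5g2. Of the windows of Atp5g2, 38.4% occur in another annotated gene, and reads lost in this way were not counted.

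The threshold left out 6 genes. Cox4i2 reached 1 CPM in 2 mice, Cox6b2 in 1 mouse and mt-Nd4l, 98.8% of whose windows occur in its copy Gm10222, in 4 mice, whereas Cox7b2, Cox8b and Cox8c reached it in 0 mice. Cox8c had a single count in 1 mouse and 0 in the other 53 mice. Just inside the threshold were Cox7a1 with 11 mice, Ndufa4l2 with 27 and Cox6a2 with 48. Their counts ran from 8 to 48, 12 to 42 and 12 to 72 per mouse, which leaves them the widest errors among the nuclear members.

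Among the mitochondrial genes, mt-Co1, the catalytic core of complex IV, stood at 8328 CPM per kilobase, mt-Nd1 at 1604, mt-Cytb, the only mitochondrial subunit of complex III, at 1311, and mt-Atp8 at 21.7. mt-Nd6, which is encoded on the opposite strand to the other mitochondrial members, stood at 65.4, although none of its windows occur in another annotated gene. The order of the genes with shared windows cannot be told apart from mapping. Summed over the 12 genes, the level was 16483 ± 1388 CPM (SD, n = 10) in SH control, 16710 ± 1193 (n = 7) in SH RES and 16461 ± 1752 (n = 10) in SH SUS mice. It was 18406 ± 1740, 17092 ± 1218 and 17507 ± 1036 CPM in EE control, RES and SUS mice, with n = 9 in each. The sum ranged from 12923 to 19732 in SH and from 14712 to 20849 in EE mice, and 23 of 27 EE mice lay above the SH median of 16409. The housings overlapped, as 3 EE mice exceeded every SH mouse and 2 SH mice lay below every EE mouse. The nuclear sum lay between 10487 ± 693 in EE control and 10784 ± 563 CPM in EE RES mice, so its group means differed by less than the spread within a group. Fewer cells of a type and less RNA per cell cannot be told apart in bulk tissue.

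**Figure D2:**
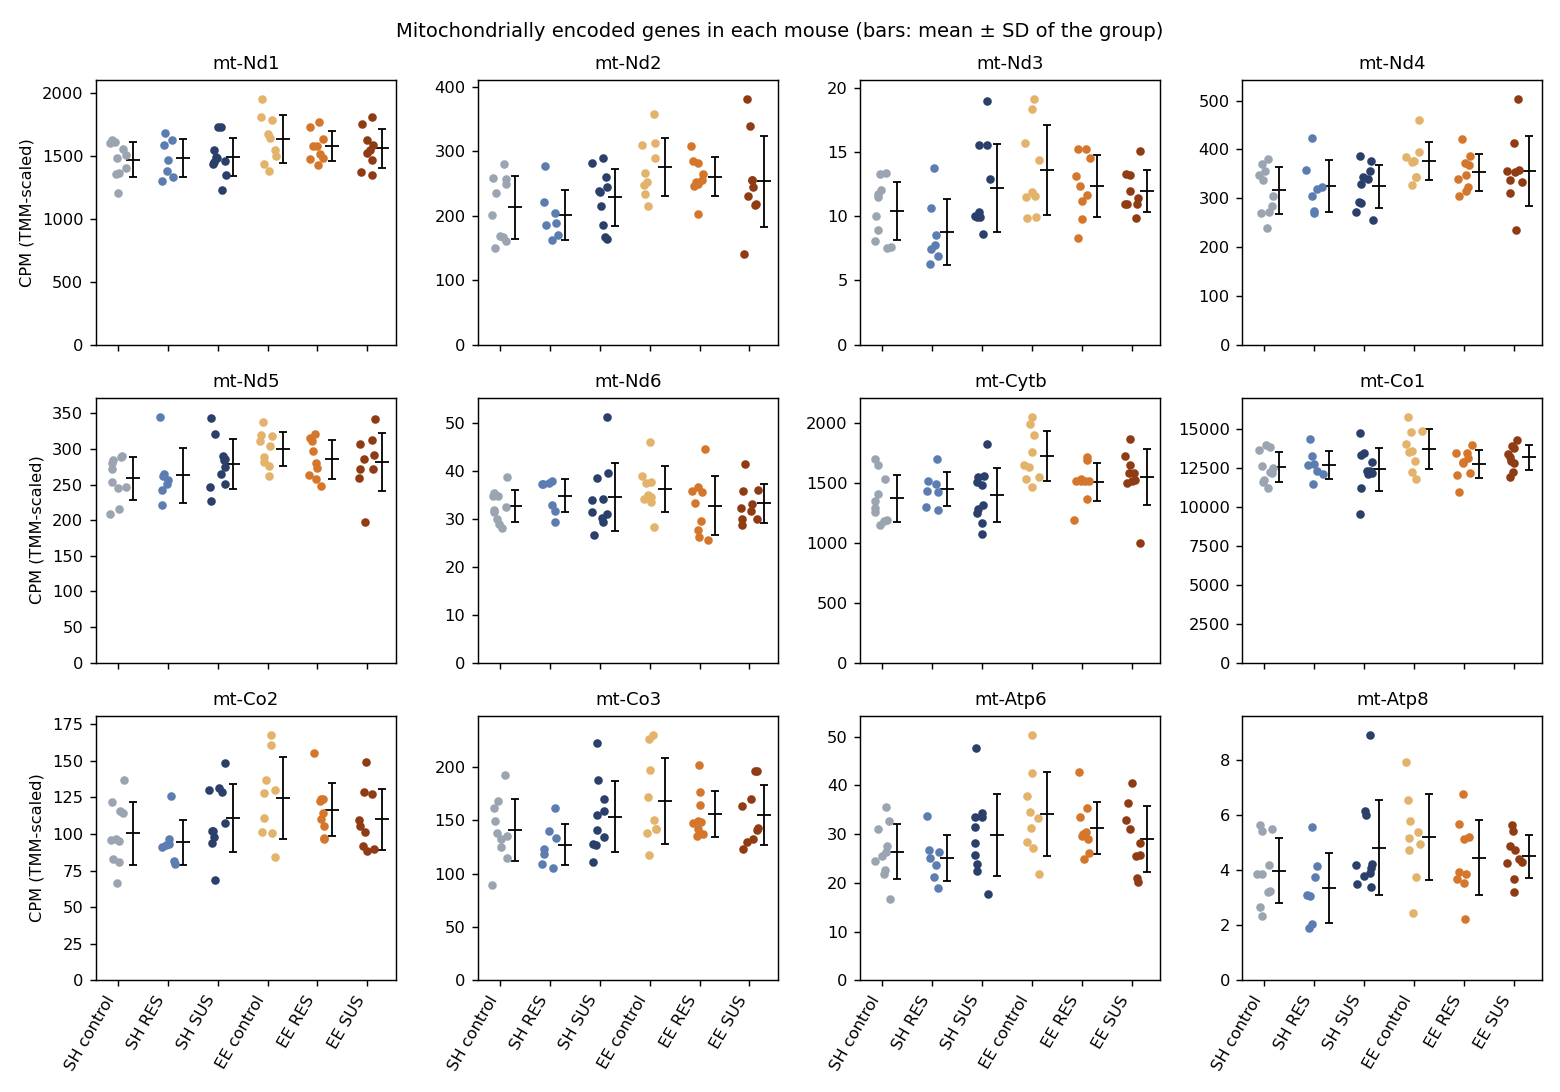
Level of each mitochondrially encoded member in each mouse, in TMM-scaled CPM from 0, by group. Points are mice and bars show the mean ± SD of 7 to 10 mice. In mt-Cytb the EE control mice reach from 1466 to 2051 CPM and the SH control mice from 1147 to 1703.

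The effect of housing was examined first. Averaged over control, RES and SUS mice, all 12 mitochondrial members were higher in EE, by a median of 0.18 on the log2 scale (0.00 for all 18283 genes tested), and 2 of them, mt-Nd2 and mt-Cytb, passed an adjusted p of 0.05 in the quasi-likelihood test of edgeR. At that threshold 2.42% of all genes were called, and 0.881% were called and higher in EE. At an unadjusted p below 0.05, 10 of 12 mitochondrial members were called, all higher in EE, where the shares over all genes were 17.6% in either direction and 8.93% for higher in EE. limma-voom called 3 mitochondrial members after adjustment and 11 before it, and DESeq2 called 3 and 10. Members moved together between mice of a group, with a median correlation of 0.49 for mitochondrial and 0.61 for nuclear pairs. Counts of members, here and below, are therefore not counts of separate results.

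mt-Nd2 encodes a membrane subunit of complex I. Its lowest, median and highest level was 149, 218 and 280 CPM in SH control, 162, 188 and 277 in SH RES, and 164, 237 and 290 in SH SUS mice. In EE mice the same values were 216, 266 and 358 for control, 202, 256 and 308 for RES, and 140, 245 and 381 for SUS. Of 27 EE mice 25 lay above the SH median and 7 above every SH mouse, yet the lowest of all 54 mice was an EE SUS mouse. The log2 fold change was 0.30 ± 0.08 (SE), with an edgeR adjusted p of 0.0227. mt-Nd2 stayed below 0.05 when any single mouse was left out, with adjusted p between 0.00635 and 0.0385. In fits chosen after seeing the data the call was lost with the unmapped share (0.0735) or endothelial, oligodendrocyte and granule scores (0.193) as covariates.

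mt-Cytb encodes cytochrome b, the electron-carrying core of complex III. It ran from 1147 to 1703 CPM in SH control mice with a median of 1321, from 1279 to 1704 with a median of 1432 in SH RES, and from 1076 to 1824 with a median of 1401 in SH SUS. In EE control mice it ran from 1466 to 2051 with a median of 1655, in EE RES from 1196 to 1718 with a median of 1517, and in EE SUS from 999 to 1868 with a median of 1586. The groups overlapped, and 24 of 27 EE mice exceeded the SH median. The log2 fold change was 0.18 ± 0.05 (SE), with an edgeR adjusted p of 0.0473. The call was lost when any 1 of 41 mice was left out, with adjusted p up to 0.0738, and also without a low-count filter (0.0702) and with choroid plexus and thalamus scores as covariates (0.0506). In fits chosen after seeing the data it was also lost with the unmapped share (0.0874) or endothelial, oligodendrocyte and granule scores (0.476) as covariates.

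The other 10 mitochondrial members did not pass adjustment by edgeR. mt-Nd3 had a log2 fold change of 0.28 ± 0.09 and an edgeR adjusted p of 0.0613, but it was the third member called by limma-voom (0.0499) and by DESeq2 (0.0305). mt-Nd4 had 0.17 ± 0.06 and 0.0850. By edgeR with choroid plexus and thalamus scores as covariates mt-Nd3 was called, with an adjusted p of 0.0361. For mt-Co1, which holds most of the mitochondrial reads, the value was 0.07 with a 95% interval from 0.01 to 0.14 and an adjusted p of 0.228. mt-Nd6 differed least, at 0.00 with an interval from -0.11 to 0.11, and its sign changed with the processing. The rest lay between 0.10 (mt-Nd1) and 0.23 (mt-Atp8). Of the members with no window in another annotated gene, mt-Nd1 and mt-Cytb were higher at an unadjusted p below 0.05, mt-Atp8 had an interval from -0.00 to 0.46, and mt-Nd6 was near 0.

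The ranges by housing, over 27 mice each, showed the overlap of the other mitochondrial genes. mt-Nd1, a membrane subunit of complex I, ran from 1202 to 1729 CPM with a median of 1479 in SH, and from 1350 to 1949 with a median of 1579 in EE, where 6 mice exceeded every SH mouse. For mt-Nd4 the values were 239 to 423 with a median of 324 in SH and 236 to 502 with 356 in EE, and for mt-Nd5, 208 to 344 with 264 and 197 to 342 with 288. These are also membrane subunits of complex I, for which no SH mouse lay below the lowest EE mouse. mt-Nd6 ran from 26.6 to 51.1 CPM with a median of 32.9 in SH and from 25.5 to 45.9 with a median of 34.2 in EE.

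In complex IV, mt-Co1 ran from 9545 to 14717 CPM with a median of 12300 in SH and from 10965 to 15737 with a median of 13175 in EE. mt-Co2 ran from 66.3 to 148 with a median of 96.4 and from 84.5 to 167 with a median of 111, and 23 of 27 EE mice were above the SH median. The same number held for mt-Co3, the third core subunit, at 89.4 to 222 with a median of 135 in SH and 117 to 229 with a median of 148 in EE. In complex V, mt-Atp6, the subunit of the proton channel, ran from 16.7 to 47.6 with a median of 26.3 and from 20.2 to 50.3 with a median of 30.5. mt-Atp8 ran from 1.90 to 8.90 with a median of 3.87 and from 2.24 to 7.94 with a median of 4.74. Each of these genes overlapped between the housings over most of its range.

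The nuclear members showed no such shift. Their median log2 fold change between housings was 0.01, 56 of 92 were positive, and edgeR called 0 after adjustment, as did limma-voom and DESeq2, where edgeR called 2.42% of all genes. At an unadjusted p below 0.05, where edgeR called 17.6% of all genes, each of the 3 tools called 3 members, which by edgeR were Ndufa12, an accessory subunit of complex I, Cox5a of complex IV and Sdhaf2, an assembly factor of complex II. The errors were small, and for 91 of 92 nuclear members the 95% interval lay within 0.25 of 0 on the log2 scale. Ndufa12 had the largest estimate, 0.10, with an adjusted p of 0.168, and 17.7% of its windows occur in another gene. Its level ran from 56.3 to 84.9 CPM with a median of 67.7 in SH, and from 56.7 to 85.8 with a median of 74.0 in EE mice, which overlap almost fully. By complex, the median log2 fold change was 0.01 for complexes I and V, 0.00 for complex II, 0.01 for complex III and 0.02 for complex IV and the assembly factors.

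Summed by complex, the nuclear levels of the housings lay on top of each other. Complex I was 2790 ± 144 CPM (SD, n = 27) in SH and 2802 ± 171 in EE, complex II 657 ± 22.7 and 658 ± 29.9, and complex III 936 ± 45.9 and 939 ± 52.5. Complex IV was 2095 ± 130 and 2100 ± 146 (its SH range of 1902 to 2383 lies almost within the EE range of 1801 to 2366). Complex V was 3919 ± 173 and 3917 ± 218, and the assembly factors 265 ± 9.79 and 269 ± 11.9. Every one of these 6 differences was smaller than the SD among mice of either housing.

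**Figure D3:**
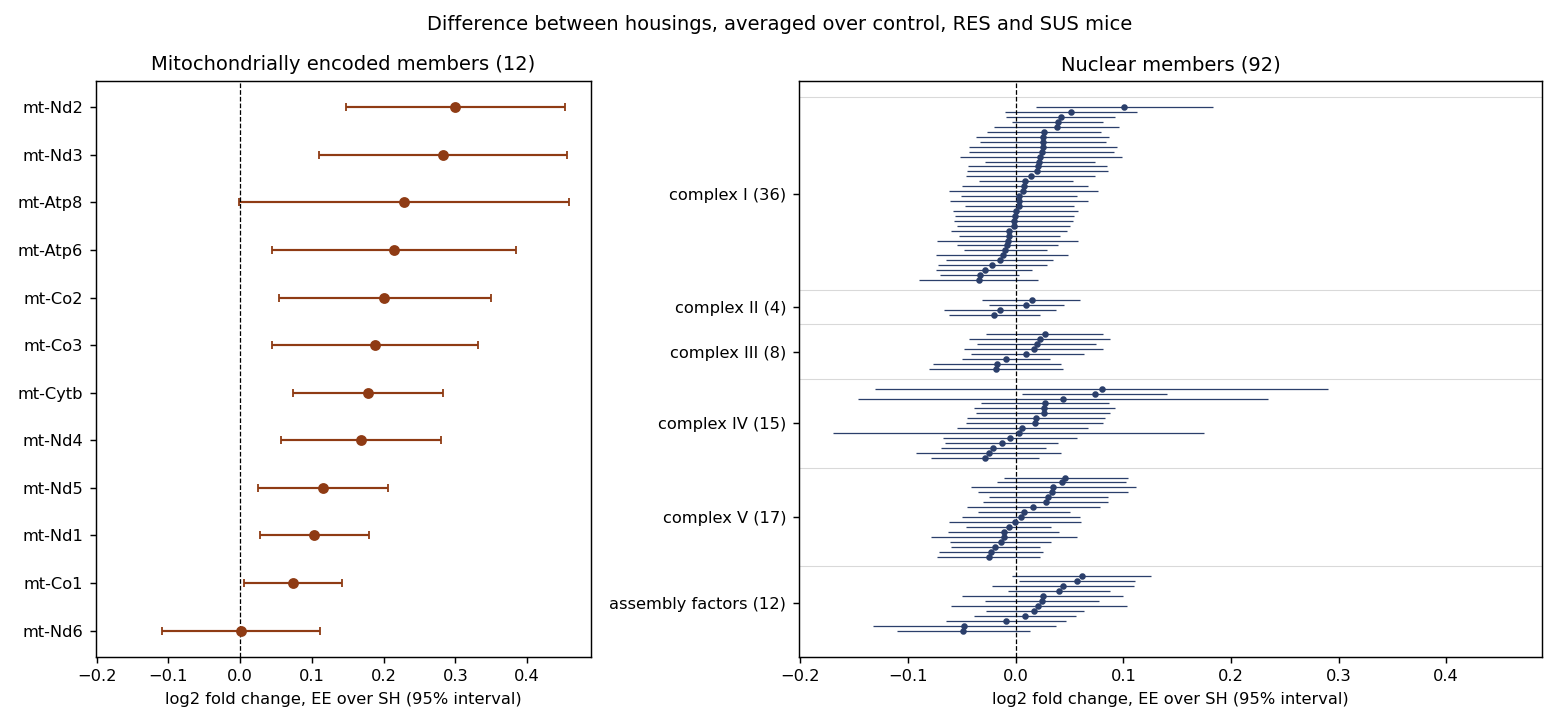
Log2 fold change of EE over SH averaged over control, RES and SUS mice, with 95% intervals from edgeR. The left panel shows the 12 mitochondrial members, from 0.00 for mt-Nd6 to 0.30 for mt-Nd2, and the right panel the 92 nuclear members by complex, which gather around 0.

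The housing difference of the mitochondrial genes was taken apart by phenotype. Between unstressed mice, EE control against SH control, all 12 were higher, with a median log2 fold change of 0.28, and 11 of 12 had an unadjusted p below 0.05, where 5.02% of all genes did and 2.67% did with a higher level in EE. limma-voom also called 11 and DESeq2 10 before adjustment. The 11 became 7 without SH control mouse 1 and 5 without EE control mouse 2. None of the 12 passed adjustment by any of the 3 tools, and the smallest edgeR adjusted p was 0.413, for mt-Cytb at 0.33 ± 0.09. In this comparison 0.00547% of all genes passed. mt-Nd2 was at 0.38 and mt-Nd3 at 0.38, with intervals from 0.12 to 0.63 and from 0.10 to 0.67. Of the nuclear members 18 of 92 were higher in EE, with a median of -0.03, and Uqcrq alone, at -0.11, was below 0.05 before adjustment, by edgeR and DESeq2 but not limma-voom. Between RES mice 5 of 12 had an unadjusted p below 0.05, all higher in EE, against 16.0% of all genes, or 8.29% for higher in EE. They were mt-Nd2, mt-Nd3, mt-Co2, mt-Co3 and mt-Atp6, and all but mt-Nd2 share nearly all windows with nuclear copies. None of mt-Nd1, mt-Nd6, mt-Cytb and mt-Atp8, which have no shared window, was among them. Of these, mt-Cytb was at 0.06, mt-Nd6 at -0.09 and mt-Atp8 at 0.40. None of the 5 passed adjustment, where 0.273% of genes did, and mt-Nd3 came first with 0.49 ± 0.16 and an edgeR adjusted p of 0.117. limma-voom and DESeq2 each called 4 before and 0 after adjustment. The 5 became 3 without SH RES mouse 2, SH RES mouse 4 or EE RES mouse 3, and 2 without SH RES mouse 6, SH RES mouse 7 or EE RES mouse 4. Of the nuclear members Ndufa12, at 0.18, Ndufs5, at 0.11, and Ndufaf6, at 0.13, were below 0.05 before adjustment, with edgeR adjusted p of 0.220 or more. Between SUS mice the median was 0.02 and 0 of 12 were below 0.05 before adjustment, by edgeR, limma-voom or DESeq2, against 7.36% of genes. There 0.00547% of genes passed adjustment, and of the nuclear members Sdhaf3 was below 0.05 before it. Unlike between control mice, most nuclear members were higher in EE between RES mice, 72 of 92 with a median of 0.03. Between SUS mice it was 62 of 92, with a median of 0.01.

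Whether the housing effect differs between defeated and control mice was tested as the interaction of defeat with housing. It compares the change after defeat, averaged over RES and SUS mice, in EE with that in SH. A difference in the housing effect between RES and SUS mice was not tested. All 12 mitochondrial estimates were negative, with a median of -0.15, and 83 of 92 nuclear estimates were positive, with a median of 0.05. mt-Cytb, at -0.23 ± 0.11, and Uqcrq, at 0.13, were the members below an unadjusted p of 0.05, where 6.47% of genes were. No member passed adjustment by any of the 3 tools, and neither did any gene by edgeR, a share of 0%. The edgeR adjusted p was 0.756 for mt-Cytb. The housing effect is therefore not shown to differ between defeated and control mice.

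No member passed adjustment for defeat within either housing. SH SUS and SH control mice differed in 0 of 104 members before or after adjustment by edgeR, limma-voom and DESeq2, where 2.78% of genes had an unadjusted p below 0.05 and 0.0328% passed adjustment. SH RES and SH control mice also differed in 0 members by the 3 tools, where the shares were 3.51% and 0%. In SH SUS mice 11 of 12 mitochondrial and 39 of 92 nuclear members were higher than in SH control mice. The median log2 fold changes were 0.105 and -0.004. In SH RES mice the counts were 6 of 12 and 15 of 92, with medians of -0.032 and -0.026. Both comparisons share the SH control mice. In EE, RES mice had mt-Cytb lower than control mice, at -0.20 ± 0.09, and Ndufaf6, an assembly factor of complex I, higher at 0.12, both before adjustment only, where 7.91% of genes were below 0.05 and 0% passed. EE SUS mice had Uqcrq higher than EE control mice, at 0.14, with an unadjusted p of 0.0137, where the shares were 7.90% and 0%. Of the nuclear members 84 of 92 were higher in EE SUS and 81 of 92 higher in EE RES than in EE control mice, with median log2 fold changes of 0.03 and 0.04, and 0 of 12 mitochondrial members were higher in either. These comparisons, the interaction and the comparison of the unstressed groups share the EE control mice, so their directions are not separate evidence. In each of the 4 comparisons of RES or SUS with control mice of the same housing, the 95% interval lay within 0.25 of 0 for 88 or 89 of 92 nuclear members. It did so for only 3 or 4 of 12 mitochondrial members.

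Averaged over housings, defeated and control mice differed in 0 members before and after adjustment by the 3 tools, where 4.81% of genes were below 0.05 and 0.0438% passed. For 90 of 92 nuclear and 10 of 12 mitochondrial members the 95% interval lay within 0.25 of 0.

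**Figure D4:**
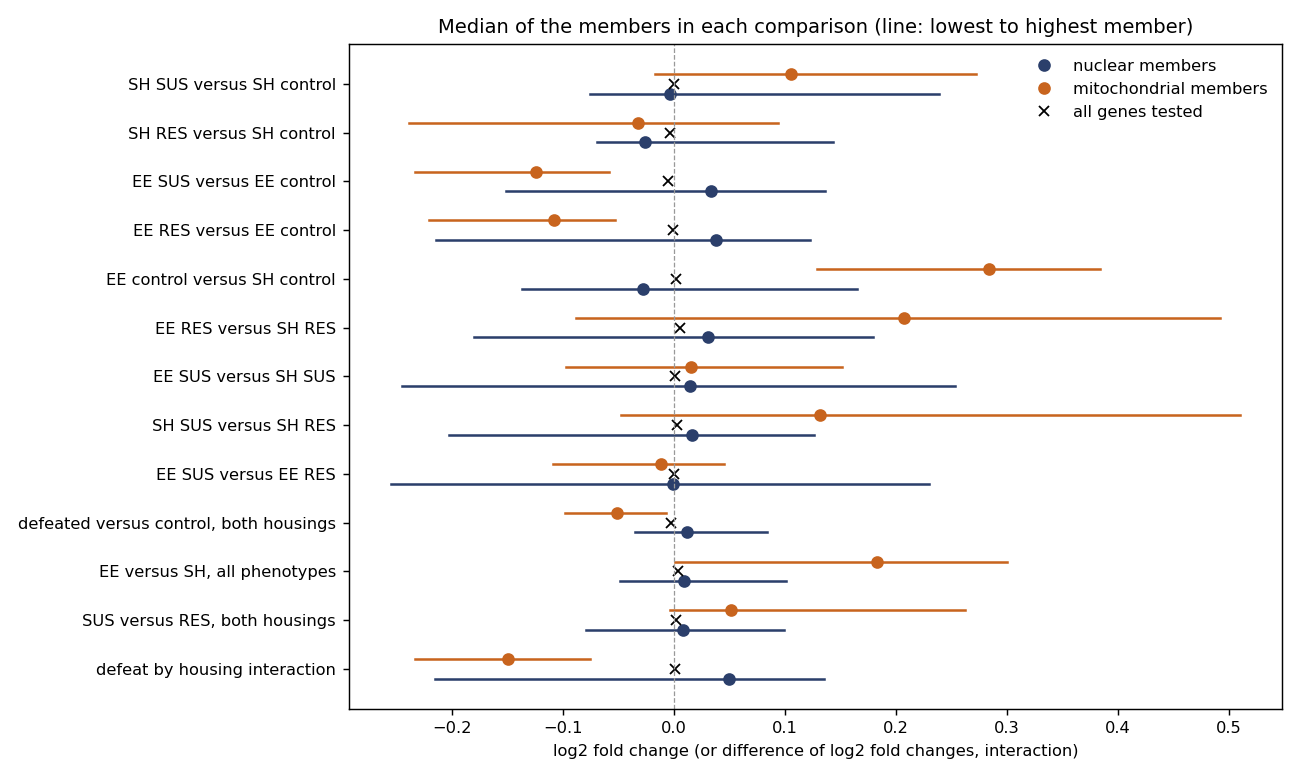
Median log2 fold change of the 92 nuclear (blue) and 12 mitochondrial (orange) members in each comparison, with lines from the lowest to the highest member and crosses for the median of all genes tested. The mitochondrial medians reach from -0.15 in the interaction to 0.28 between the control groups, and the nuclear ones stay between -0.03 and 0.05.

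RES and SUS mice were compared directly. In SH, 3 mitochondrial members were higher in SUS mice at an unadjusted p below 0.05, where 4.88% of all genes were, and none passed adjustment by edgeR, limma-voom or DESeq2, where 0% of genes did. mt-Nd3 ran from 8.66 to 19.0 CPM with a median of 10.2 in SH SUS mice and from 6.31 to 13.8 with a median of 7.80 in SH RES mice. These ranges overlap, and the log2 fold change was 0.47 ± 0.16 with an edgeR adjusted p of 0.934. mt-Atp8, a small subunit of complex V at 1.90 to 8.90 CPM, had 0.51 ± 0.21, and mt-Co3 had 0.27. Nearly all windows of mt-Nd3 and mt-Co3 are shared with nuclear copies. Of the 12 mitochondrial estimates 8 were positive, and mt-Cytb, which has no shared window, was lowest at -0.05. In EE only Uqcrq, at 0.11 in favor of SUS, was below 0.05 before adjustment, where 3.52% of genes were and 0% passed. DESeq2 called it too and limma-voom did not. Averaged over both housings, 0 members were below 0.05 by edgeR and limma-voom and 1 by DESeq2, with 3.67% of genes below 0.05 by edgeR and 0% passing adjustment. In the test of any difference among the 6 groups, 4 mitochondrial members, mt-Cytb, mt-Nd3, mt-Nd2 and mt-Co2, and 0 nuclear members had an unadjusted p below 0.05, against 11.1% of genes. The lowest edgeR adjusted p among members was 0.209, for mt-Cytb, and 0.350% of genes passed. limma-voom and DESeq2 each called 3 mitochondrial and 0 nuclear members before adjustment and none after it. A limma-voom p below 0.05 before adjustment with a fold change above 1.3 was reached by 0 members between housings, where 0.613% of all genes reached it, and by 1 between EE control and SH control mice (1.12% of genes). It was reached by 2 members between EE RES and SH RES mice (3.24%) and by 2 between SH SUS and SH RES mice (1.14%).

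The 2 members of each complex with the smallest p in that test are given for the nuclear genes. They were Ndufa12 and Ndufa10 of complex I, Sdhc and Sdhd of complex II, Uqcrq and Uqcrc1 of complex III, Cox5a and Cox6a2 of complex IV, Atp5e and Atp5s of complex V, and the assembly factors Sdhaf3 and Ndufaf6. Their edgeR adjusted p ran from 0.520 for Ndufa12 to 0.889 for Sdhd. Uqcrq, which is known as a small ubiquinone-binding subunit, was at 36.1 to 51.2 CPM in EE SUS mice with a median of 48.0, and at 37.9 to 46.6 with a median of 43.8 in EE control mice. The lowest and the highest of these 18 mice were thus both EE SUS mice. Sdhaf3, an assembly factor of complex II, was at 12.1 to 15.4 CPM in EE SUS and 11.3 to 14.4 in SH SUS mice, with medians of 14.3 and 13.1. The ranges overlapped, and the log2 fold change was 0.15 with an edgeR adjusted p of 0.518.

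Several measures moved with housing beside the mitochondrial genes. The group medians of unmapped read pairs were 14.98 to 15.9% in SH and 16.2 to 16.9% in EE. All 6 oligodendrocyte, 5 endothelial and 5 pericyte and smooth muscle markers had a higher mean in EE, with 2, 1 and 0 of them called by edgeR after adjustment, and all 7 dentate granule markers a lower mean, with 3 called. All 6 thalamus and 5 CA1 markers also had a higher mean in EE and all 5 red blood cell markers a lower one, with 0 called. Of the other lists, 5 of 6 CA3, 4 of 6 interneuron, 2 of 5 astrocyte, 4 of 5 microglia, 3 of 6 choroid plexus and 3 of 4 fibroblast markers had a higher mean in EE. The summed markers ran from 954 to 2289 CPM in SH and 983 to 2142 in EE mice for oligodendrocytes, from 120 to 168 and 129 to 195 for endothelial cells, and from 178 to 240 and 176 to 250 for pericytes and smooth muscle. Those for dentate granule cells ran from 527 to 972 in SH and 463 to 988 in EE mice. In fits chosen after seeing the data, 0 members were called between housings with the unmapped share as a covariate, and 0 with endothelial, oligodendrocyte and granule scores. mt-Nd2 then had 0.22 and 0.25, with edgeR adjusted p of 0.0735 and 0.193, and mt-Cytb had 0.17 and 0.11, with 0.0874 and 0.476. The part of these measures in the housing difference was not tested beyond these fits.

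The annotated nuclear copies of the mitochondrial genes were counted in the same way. Their summed level was 630 ± 95.2 CPM (n = 27) in SH and 727 ± 118 CPM (n = 27) in EE mice, with overlap between 492 and 785 CPM. Gm28438, the copy of mt-Nd3, had a log2 fold change of 0.33 between housings and an edgeR adjusted p of 0.00704. With each gene counted together with its copies, mt-Nd3 was at 0.31 with an adjusted p of 0.00940, and mt-Nd2 and mt-Cytb were also called. Of the mitochondrial ribosomal RNAs, mt-Rnr2 was at -0.09 with an adjusted p of 0.609 and mt-Rnr1 at -0.04 with 0.859. The libraries had been depleted of ribosomal RNA, and these 2 genes still ranged together from 22392 to 58984 CPM per mouse.

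The genes of related pathways were counted by lists. After adjustment edgeR called 0 genes in any of the 13 pairwise or averaged comparisons in each of 9 lists. Between housings 17.6% of all genes had an unadjusted p below 0.05, and 8.93% of all genes had one and were higher in EE. The counts in the lists were 0 of 5 for electron carriers such as Cycs, cytochrome c, 2 of 28, both higher in EE, for further assembly factors, and 1 of 15, lower, for transcription and replication of mitochondrial DNA. Tfam, the factor that packages that DNA, was at -0.04, and Polrmt, its RNA polymerase, at 0.01. Of 8 regulators of mitochondrial biogenesis 1 was higher, and Ppargc1a, the coactivator PGC-1 alpha, was at 0.01. For mitochondrial ribosomal proteins 4 of 76 were higher and 2 lower, for the tricarboxylic acid cycle 1 of 13 was lower, and for glycolysis 2 of 16 were higher. For defeated against control mice, 5 of 16 glycolysis genes were higher at an unadjusted p below 0.05 and 15 of 16 estimates were positive. There 4.81% of all genes were called in either direction, and 442 of 18283 were called higher. For EE RES against EE control mice 4 of 16 glycolysis genes were higher, where 7.91% of all genes were called and 715 of 18283 were called higher. Both comparisons were picked with their values in view, and they share the EE control and EE RES mice. Between housings, none of 8 genes for ATP and ADP exchange and none of the 2 ribosomal RNAs passed before adjustment. The medians of these lists between housings lay between -0.07 for the ribosomal RNAs and 0.02 for glycolysis, and that of all genes at 0.00.

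Mice of the same group differed in their nuclear members as a block. With group means removed, the median correlation of log2 CPM over the 54 mice was 0.61 for 4186 pairs of nuclear members, against -0.00 for pairs of all genes tested, and 95.6% of the nuclear pairs were positive. With the shares of multimapping pairs and of pairs outside annotated features removed as well, the nuclear median was 0.31. With only group means removed, the median was 0.68 within complexes I and III, 0.65 within complex IV and 0.64 within complex V. It was 0.54 within complex II and 0.23 among the assembly factors. The mitochondrial members also moved together, with a median of 0.49 over 66 pairs, all positive. Between nuclear and mitochondrial members the median was 0.06 over 1104 pairs. Pairs within a genome were thus alike from mouse to mouse, and pairs across the genomes barely so. All these pairs come from the same 54 libraries and are given as a description.

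**Figure D5:**
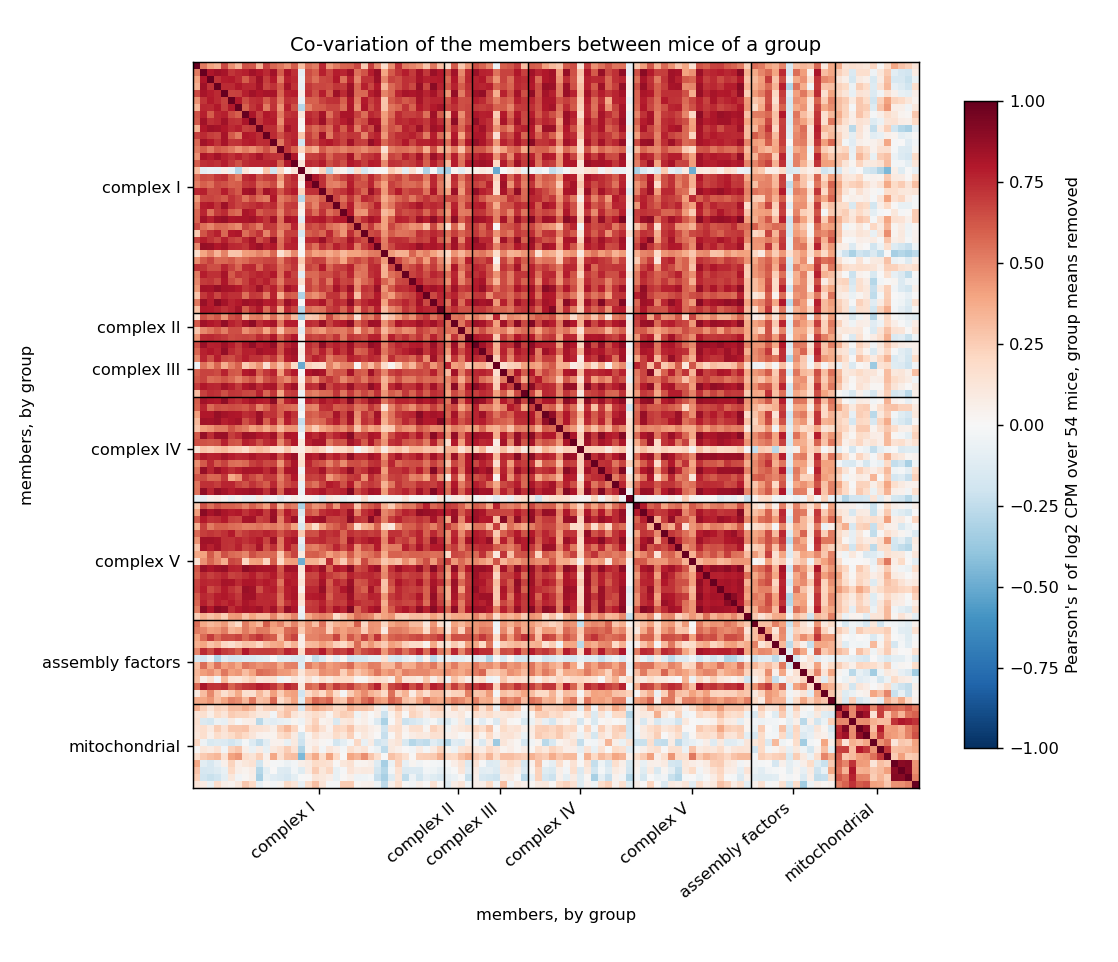
Pearson's correlation of log2 CPM over 54 mice with group means removed, for each pair of the 104 members, ordered by complex. Red is positive. Nuclear subunits form a block with a median of 0.61 (0.31 with the shares of multimapping pairs and of pairs outside annotated features removed as well, not drawn), mitochondrial genes form their own with 0.49, and the field between them has a median of 0.06. Pale stripes are members that stand outside, such as Ndufb2 and Ndufa4l2.

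The closest pairs lay both within and between complexes. Cox7b and Ndufa4 of complex IV had a correlation of 0.94, Ndufb9 of complex I had 0.93 with Ndufa4 and with Atp5o of complex V, and Sdhb, the iron-sulfur subunit of complex II, had 0.92 with Cox4i1. The assembly factor Ndufaf6, with a mean correlation of -0.12 to the other nuclear members, stood outside the block. Ndufb2 had a mean of -0.00, the lowest of complex I, and -0.51 with Uqcrc1, and Ndufa4l2, a gene of few counts, had 0.02. Within the mitochondrial genes, mt-Co2, mt-Co3, mt-Atp6 and mt-Nd3, nearly all of whose windows are shared with nuclear copies, had a median of 0.86 with each other. mt-Nd1, mt-Nd5, mt-Nd6 and mt-Cytb had 0.58, and the median between these sets was 0.36.

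Library measures moved with these blocks within groups. The summed nuclear level had a correlation of 0.81 with the share of multimapping pairs, -0.71 with the share outside annotated features, 0.64 with interneuron and -0.60 with dentate granule markers over the 54 mice. With both shares removed, the median among mitochondrial members was 0.50. The mitochondrial sum had 0.60 with astrocyte and 0.45 with microglia markers, 0.18 with the multimapping share and 0.30 with the nuclear sum. The mean of the 4 genes with almost wholly shared windows had 0.45 with the unmapped share, and that of mt-Nd1, mt-Nd5, mt-Nd6 and mt-Cytb had 0.19. The part of these measures in the co-variation was not tested further. The spread within groups was 7.21% of the mean for the median nuclear member and 16.7% for the median mitochondrial member, where genes of the same CPM range had 9.38% and 7.74%.

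The promoters of the nuclear members were searched for 3 motifs known from genes of the respiratory chain. RefSeq promoters of the GRCm38.p6 build, from 250 bases before to 50 after the start, were used. They were matched by Ensembl identifier, or else by symbol, for 75 of 92 nuclear members. On either strand, the NRF1 motif GCGCATGC was in 16.0% of these genes and 3.94% of 17492 protein-coding genes, the YY1 motif AAGATGGC in 13.3% and 3.57%, and the ETS motif CCGGAAGT in 6.67% and 5.69%. At least 1 of the 3 was in 26 of the 75 members, or 34.7%, and in 12.3% of all genes. In no promoter shown do motifs overlap. A match describes the letters in the window and not binding. The promoters shown were chosen after the search. Uqcr11, at chr10:80406772-80407071 on the minus strand, is the only member with 2 of the motifs, Sdhb, at chr4:140961021-140961320, has NRF1, and Ndufs7, a core subunit of complex I at chr10:80249199-80249498, has YY1 just after the start, both on the plus strand. Capitals mark the motifs.
Uqcr11: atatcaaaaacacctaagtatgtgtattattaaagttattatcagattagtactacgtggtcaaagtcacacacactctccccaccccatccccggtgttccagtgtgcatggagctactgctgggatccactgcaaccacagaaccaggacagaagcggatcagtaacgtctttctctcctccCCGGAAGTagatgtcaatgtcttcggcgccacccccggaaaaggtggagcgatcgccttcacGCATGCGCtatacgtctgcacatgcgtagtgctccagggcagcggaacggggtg
Sdhb: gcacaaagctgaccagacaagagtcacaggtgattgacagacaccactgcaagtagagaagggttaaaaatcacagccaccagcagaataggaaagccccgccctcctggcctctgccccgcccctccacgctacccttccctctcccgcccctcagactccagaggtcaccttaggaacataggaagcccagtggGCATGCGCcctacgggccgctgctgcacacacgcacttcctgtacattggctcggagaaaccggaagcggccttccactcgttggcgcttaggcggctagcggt
Ndufs7: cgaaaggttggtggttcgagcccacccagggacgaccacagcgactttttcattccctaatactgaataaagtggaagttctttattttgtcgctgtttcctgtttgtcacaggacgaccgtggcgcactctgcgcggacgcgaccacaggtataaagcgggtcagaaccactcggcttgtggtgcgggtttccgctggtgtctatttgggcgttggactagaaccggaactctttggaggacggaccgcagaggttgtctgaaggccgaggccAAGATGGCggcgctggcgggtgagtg
In Uqcr11 and Sdhb the NRF1 motif appears as its reverse complement, GCATGCGC. The levels of these genes were 97.7, 116 and 58.0 CPM, and none of the 3 passed the test, with edgeR adjusted p of 0.996, 0.950 and 0.953 for any difference among the 6 groups.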

How the data were processed

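RNA-seq of single mice was made with a stranded total RNA kit after depletion of ribosomal RNA and sequenced in read pairs. The authors aligned reads to mm10 with STAR, and deposited raw counts per gene. Although featureCounts is named in their methods, the columns match the gene counts of STAR, which take uniquely mapped pairs. The reverse-strand column was used. Counts on genes ran from 16760009 to 45872357 per mouse, with a median of 21552884. Symbols and exon lengths came from a GRCm38 annotation, which matched 44671 of 45318 identifiers.

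Low-count genes were removed with filterByExpr, leaving 18283 genes that include all 104 members. Counts were TMM-scaled and fitted with the quasi-likelihood model of edgeR 4.0.16 over the 6 groups in R 4.3.3. P-values were adjusted by Benjamini-Hochberg over all genes, and errors of fold changes are standard errors. limma 3.58.1 (voom) and DESeq2 1.42.0 were alternatives, with other filters, scalings, strands, covariates, a replicate block and each mouse left out. On counts simulated for the housing comparison over 18152 genes, edgeR recovered 99.5% of 200 genes changed by a log2 value of 1, with 11 others called. The largest member estimate between housings was 0.30, and recovery of changes of that size was not tested. Correlations used log2 CPM with a prior of 2 counts. The text names each mitochondrial member, alternative isoforms, genes at the threshold, and the highest, the lowest and the 2 members of smallest p in each complex. Sdhb, Ndufs5, Ndufs7, Sdhaf2, Uqcrb and the genes of the closest pairs fall outside that rule and were picked with their values in view. Members and lists were chosen with earlier results of these data known. Python 3.11.15, pandas 2.3.3, SciPy 1.17.1, Biopython 1.88 and matplotlib 3.10.9 were used.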

Additional observations from a re-analysis of the deposited data

Results flagged for a closer look

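In 26 measures, the sums and the named genes, each of the 6 groups was examined for a mouse far from the others. Of 156 groups 12 held one, and chance alone flags about 1 in 20. EE SUS mouse 8 was low in several nuclear measures, with a nuclear sum of 9403 CPM against 10565 to 11404 in the other 8 EE SUS mice, Ndufa12 at 58.1 CPM against 70.7 to 83.1, and Sdhd at 71.6 CPM against 81.6 to 88.9. SH RES mouse 3 was high in mt-Nd5, at 344 CPM against 222 to 265, and in mt-Co2, at 126 CPM against 79.7 to 96.2. EE RES mouse 4 was high in mt-Co2, at 155 CPM against 96.9 to 124. EE SUS mouse 9 was low in mt-Cytb, at 999 CPM against 1503 to 1868. SH SUS mouse 9 was high in mt-Nd6, at 51.1 CPM against 26.6 to 39.5, and SH SUS mouse 10 in mt-Atp8, at 8.90 CPM against 3.38 to 6.14. Among single nuclear genes, Ndufaf6 was 10.3 CPM in EE RES mouse 1 against 7.55 to 8.90, Uqcrc1 was 216 CPM in SH control mouse 3 against 179 to 197, and Cox5a was 112 CPM in EE SUS mouse 5 against 86.9 to 98.6.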

How the results depend on the processing

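Between housings, the count of 2 called members was 1 without a low-count filter, where mt-Cytb was lost, 4 with the replicate block, where mt-Nd3 (edgeR adjusted p 0.0395) and mt-Nd4 (0.0381) were added, and 0 with the unmapped share or with cell type scores as covariates, both chosen after seeing the data. By the study's criterion, an unadjusted limma-voom p below 0.05 with a fold change above 1.3, it was also 0 (0.613% of all genes), whereas that criterion gave 1 member for EE control against SH control (1.12%), 2 for EE RES against SH RES (3.24%) and 2 for SH SUS against SH RES (1.14%), in place of 0. Leaving out each mouse gave 1 to 3 members between housings. The 10 mitochondrial members at an unadjusted p below 0.05 became 5 with either added covariate set, the 11 between control groups became 7 with cell type scores, and the 5 between RES groups became 1 with either. Leaving out a mouse gave 5 to 12 members between control groups, with 7 without SH control mouse 1 and 5 without EE control mouse 2. Between RES groups it gave 2 to 7, with 3 without SH RES mouse 2 or 4 or EE RES mouse 3, and 2 without SH RES mouse 6 or 7 or EE RES mouse 4. mt-Nd6 between housings was -0.001 without a filter, with the replicate block and with the first run alone of EE control mouse 9, and -0.022 to 0.026 when a mouse was left out. Uqcrc1 between RES groups was -0.021 with cell type scores. Replicate numbers are shared by the groups, but whether they pair the mice is not settled. The mean correlation was 0.0304 over 126 same-numbered pairs, 32 of them above 0.1, and -0.00348 over 1086 other pairs. Of 54 mice, 9 were closest to their own number, and the main fit used no pairing. The summed levels moved by less than 1 SD under the 3 alternatives tried. Low counts limit the isoforms near the threshold, and the counts of mitochondrial genes with nuclear copies leave out multimapping pairs.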
